A study of Mus musculus with 8 samples.

Results

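Markers of blood-forming cells were read in sorted epithelium of the thymus (thymic epithelial cells, TECs). The 35 genes, of 27179 counted, are 2 pan-leukocyte, 13 thymocyte, 5 B cell, 11 myeloid and 4 erythroid markers, listed by name and not by a threshold on their values. All 35 were found among the deposited identifiers, and 32 passed a filter of at least 1 CPM (counts scaled to a library total of 1000000) in at least 2 libraries. The B cell factor Pax5, the dendritic cell integrin Itgax and the plasmacytoid dendritic cell lectin Siglech did not pass, and are described by their values alone.

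The 8 libraries of polyadenylated RNA came from C57BL/6 mice: 4 of cortical TECs (cTECs) and 2 of medullary TECs (mTECs) from wild-type (WT) mice, and 1 of each population from mice labelled as Mcl1 knock-out (KO). Mcl1 encodes an anti-apoptotic protein of the BCL-2 family. The labels give no age, no treatment, no other allele, no driver of the deletion and no markers of the sort, and do not say whether cells of several mice were pooled. The series text counts the WT libraries as biological replicates without saying that each is a separate animal, so p-values measure the spread between these libraries. Each KO group is a single library, which was assumed to vary as the WT libraries do.

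A thymus is built of an epithelial network filled with developing T cells. Cortical epithelium holds immature thymocytes in close contact, and medullary epithelium shares its space with B cells, macrophages and dendritic cells. The markers describe those neighbours: the CD3 chains, CD4, CD8 and the recombinase proteins of thymocytes, the antigen receptor of B cells, the lysozyme, complement and Fc receptor adaptor proteins of myeloid cells, and the haem synthesis and membrane proteins of red cell precursors. Medullary epithelium is also known to transcribe many genes of other tissues. In bulk RNA, fewer cells of a type and less RNA per cell cannot be told apart, nor can RNA of blood cells and transcripts of the same genes from epithelium.

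Total counts ran from 11516780 to 19171953 per library, so that 1 count was 0.0522 to 0.0868 CPM. Mcl1 was at 236 to 308 CPM in WT cTECs and 8.36 CPM in KO cTEC, and at 107 and 206 CPM in WT mTECs and 75.6 CPM in KO mTEC. Summed CPM of 10 epithelial genes was 8012 to 9274 in WT cTECs, 12175 in KO cTEC, 4522 and 4833 in WT mTECs and 6348 in KO mTEC. The KO cTEC library stood apart. It had a count for 17800 genes against 18704 to 22708 in the others, and its summed CPM was 47.5 over 16 tuft cell genes (1476 to 2405 in WT cTECs) and 23.6 over 8 medullary genes (1051 to 1298 in WT cTECs). Among these, Aire, the regulator that defines mature mTECs, was at 29.1 to 121 CPM in the WT cTEC libraries and had no count in KO cTEC. Over 10 proliferation genes KO cTEC summed to 719 CPM, against 69.1 to 228 in WT cTECs, with 9 of 10 called higher. Of 8 fibroblast genes, 2 were called higher too, Col1a1 and Col1a2. The same test called 5.10% of all genes higher in KO cTEC. In KO mTEC, 8 fibroblast genes summed to 1090 CPM against 173 and 153 in WT mTECs, and 8 endothelial genes to 160 against 106 and 39.04. The proliferation genes summed to 599 CPM against 289 and 392. None of these genes was called, and the same test called 0% of all genes. Over 14 immediate-early genes, WT cTEC libraries 2 to 4 stood apart at 20597 to 29612 CPM, against 3506 in WT cTEC 1 and 6763 in KO cTEC. The sums were 2645 and 1712 CPM in WT mTECs and 3949 CPM in KO mTEC. Of the 14, 12 were called lower in WT mTECs than in WT cTECs, against 13.9% of all genes. The part of these differences in the results below was not tested.

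Promoter sequence is shown for 3 of the 4 erythroid members and for Lck, the most abundant thymocyte marker. Of these erythroid members only Alas2 was called in KO cTEC. Each run is the 150 bases before an annotated start in RefSeq (GRCm38.p6), 5′ to 3′ on the gene's strand. In the first 3 the capitals mark TTATC, which is GATAA read on the other strand, the core of sites bound by GATA factors. In the others they mark CAGGTG, an E-box form bound by E proteins.
Alas2: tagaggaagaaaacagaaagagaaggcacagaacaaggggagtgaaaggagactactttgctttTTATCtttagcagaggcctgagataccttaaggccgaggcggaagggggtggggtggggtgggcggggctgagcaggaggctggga
Klf1: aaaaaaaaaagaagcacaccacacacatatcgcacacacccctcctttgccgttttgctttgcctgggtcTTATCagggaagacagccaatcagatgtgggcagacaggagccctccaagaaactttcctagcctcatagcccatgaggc
Epor: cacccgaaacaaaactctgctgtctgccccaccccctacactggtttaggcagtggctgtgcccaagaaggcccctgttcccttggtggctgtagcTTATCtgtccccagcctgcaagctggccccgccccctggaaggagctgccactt
Lck upstream start: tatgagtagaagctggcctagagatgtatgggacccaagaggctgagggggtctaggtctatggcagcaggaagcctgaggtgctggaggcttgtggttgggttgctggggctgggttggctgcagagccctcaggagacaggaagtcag
Lck downstream start: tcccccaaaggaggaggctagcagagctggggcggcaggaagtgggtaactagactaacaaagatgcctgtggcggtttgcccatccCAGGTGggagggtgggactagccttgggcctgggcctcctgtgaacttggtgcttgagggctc
The windows lie at chrX:150547267-150547416 (plus strand) for Alas2, chr8:84901832-84901981 (plus) for Klf1, chr9:21963577-21963726 (minus) for Epor, and chr4:129573642-129573791 and chr4:129558373-129558522 (both minus) for Lck. The GATAA match begins 86, 80 and 54 bases before the start of Alas2, Klf1 and Epor. At Lck, CAGGTG begins 63 bases before the downstream start and does not occur in the window of the upstream one. Either strand was searched. GATAA is in 13.3% of all 32851 windows of this length and in 7 of the 28 windows available for 24 members. Beside Alas2, Klf1 and Epor these are windows of Cd3g, Dntt, Ptprc and Xcr1, which are not erythroid markers. Slc4a1, the erythroid member not printed, is not among the genes with a GATAA match. CAGGTG is in 10.6% of all windows and in 6 of those 28. These belong to C1qb, Cd3d, Cd3g, Lck, Rag1 and Siglech, so not to thymocyte markers alone. A match is a description of the letters and not a bound site.

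Summed over the 35 members, the level was 477, 391, 355 and 366 CPM in WT cTEC libraries 1 to 4, 95.5 CPM in KO cTEC, 999 and 1357 CPM in WT mTECs and 943 CPM in KO mTEC. Much of this was Lyz2, the lysozyme of macrophages and neutrophils. Without it the sums were 160 to 268 CPM in WT cTECs, 86.1 CPM in KO cTEC, 297 and 348 CPM in WT mTECs and 364 CPM in KO mTEC. Either way KO cTEC was the lowest library.

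**Figure D1:**
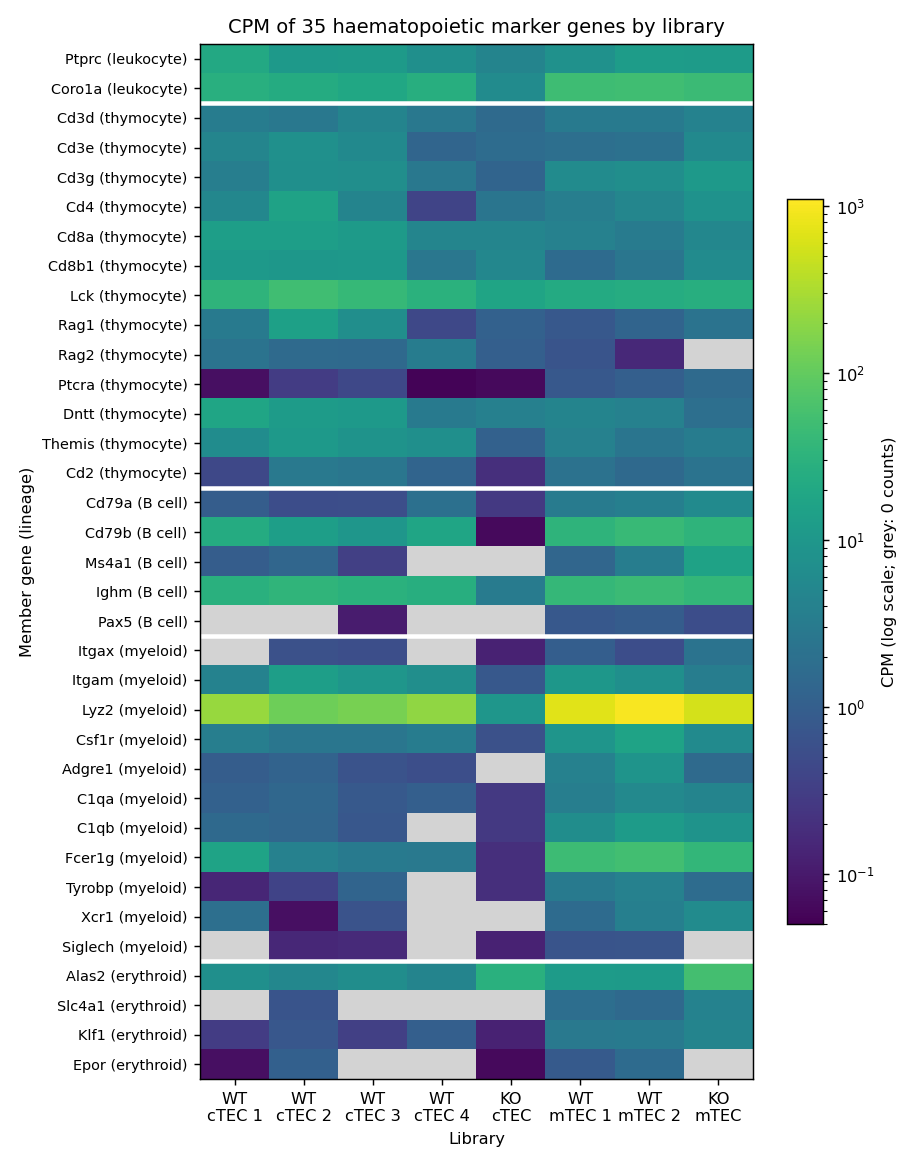
CPM (colour, log scale, grey for 0 counts) of the 35 marker genes (rows, by lineage) in the 8 libraries (columns). Lyz2 is the highest row in every library but KO cTEC. In KO cTEC most B cell and myeloid rows are grey or darker than in the WT cTEC libraries. Alas2 is the erythroid row that is brighter in both KO libraries.

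In WT, 10 members were higher in mTECs than in cTECs and 1 was lower, and 21 of the 32 tested did not pass. Over all genes tested the same rule called 13.2% higher and 13.9% lower (27.0% in all). Both mTEC libraries lay above all 4 cTEC libraries for 18 of the 35 members and below them for 5, against 27.9% and 26.7% of all genes tested. The median log2 ratio of mean CPM was 1.25 over the members and 0.09 over all genes above 3 counts a library. By lineage the members parted: 6 myeloid, 2 erythroid, 1 B cell and 1 pan-leukocyte gene were the higher ones, and the lower one was a thymocyte gene. The number of higher members was 2 without WT mTEC 1 (Lyz2 and Csf1r) and 1 without WT mTEC 2 (Lyz2), since either leaves a single mTEC library.

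In KO cTEC, 9 members were lower than in WT cTECs and 1 was higher, and 22 did not pass. Over all genes tested 12.4% were called lower and 5.10% higher (17.5% in all). The KO library lay below all 4 WT cTEC libraries for 19 of the 35 members and above them for 1, against 33.0% and 29.1% of all genes. The median log2 ratio was -1.76 over the 32 members above 3 counts a library and -0.14 over all such genes. This comparison and that of mTECs with cTECs share the WT cTEC libraries, so their values are not independent. Leaving out a library moved the count of lower members to between 4 (without WT cTEC 3) and 10, and it was 5 without WT mTEC 1.

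In KO mTEC no member was called against WT mTECs. The same test called 0% of all genes, so the count says nothing particular to the members. At an unadjusted p under 0.05, 1 member was higher (Alas2) and 1 lower (Rag2), and DESeq2 called 1 member, Alas2. The difference of the KO effects between the populations, tested directly, was called for 4 members, all with the lower KO effect in cTECs: Coro1a, Cd79b, Ighm and Lyz2. Over all genes 6.16% were called in that direction and 0.644% in the other (6.81% in all). Mcl1 itself differed in this test (3.96 ± 0.50, adjusted p = 0.00277): it fell to 3.20% of the WT mean in KO cTEC and was at 48.3% in KO mTEC, where its log2 difference of -1.01 ± 0.36 did not pass (adjusted p = 0.538). The KO libraries thus differ in how much of the targeted transcript they hold.

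**Figure D2:**
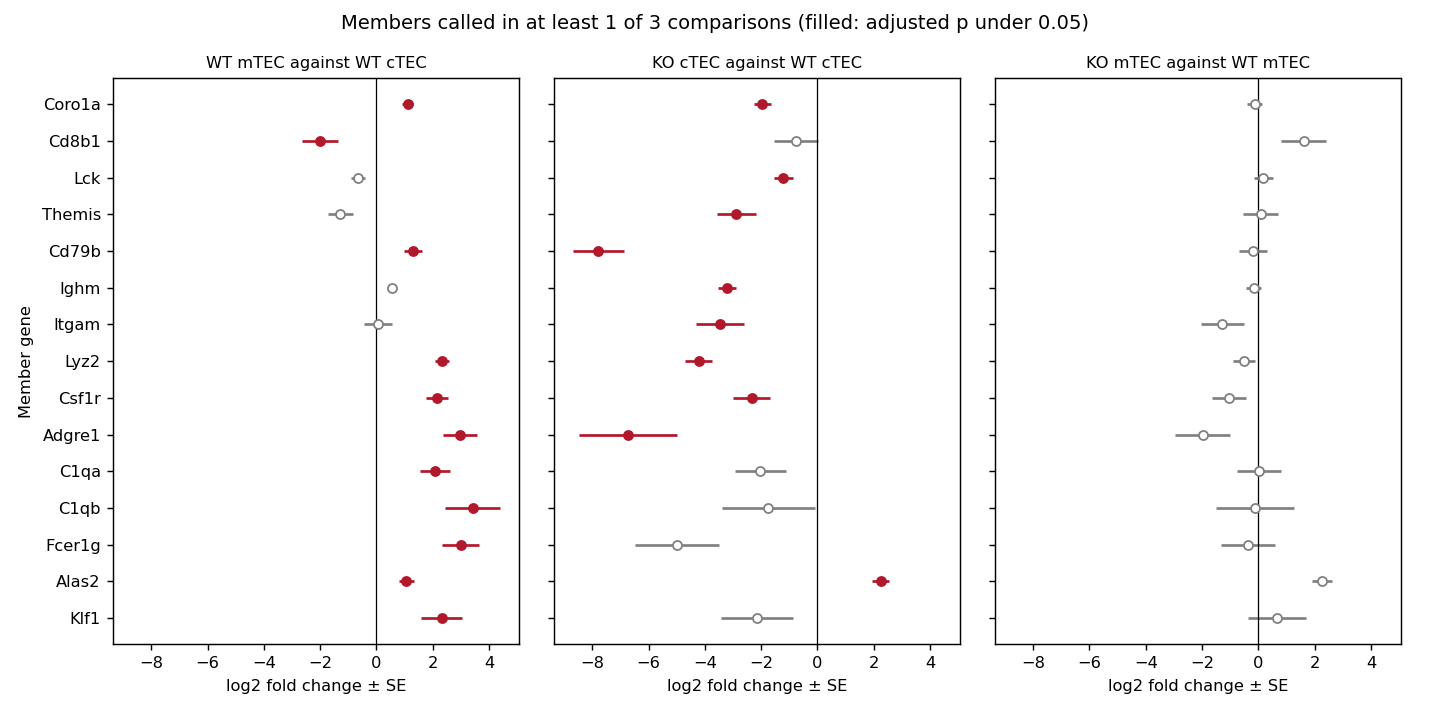
Fitted log2 fold change ± SE (x axis) of the 15 members called in at least 1 of 3 comparisons (y axis), with a panel per comparison and filled red points at an adjusted p under 0.05. Most points lie right of 0 in the mTEC panel and left of 0 in the KO cTEC panel, Alas2 lies right of 0 in all panels, and no point is filled for KO mTEC.

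The pan-leukocyte markers are Ptprc, the CD45 phosphatase on the surface of nucleated blood cells, and Coro1a, an actin regulator of leukocytes (chromosome 7, 126699774 to 126704816, mm10). Coro1a was at 27.7, 23.8, 19.7 and 26.3 CPM in WT cTEC libraries 1 to 4, 6.27 CPM in KO cTEC, 50.2 and 50.8 CPM in WT mTECs and 45.2 CPM in KO mTEC. None of the 4 groups overlapped, and the KO cTEC library was the lowest. The gene was 2.07-fold higher in WT mTECs than in WT cTECs (log2 fold change 1.10 ± 0.19 SE, adjusted p = 0.00581) and 3.89-fold lower in KO cTEC (-1.96 ± 0.30, adjusted p = 0.00332). In KO mTEC its log2 difference from WT was -0.13 ± 0.28, and the KO effects differed by 1.83 ± 0.39 (adjusted p = 0.0276, lost without either WT mTEC library).

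Ptprc was at 20.6, 10.7, 11.5 and 7.21 CPM in WT cTECs, 4.64 CPM in KO cTEC, 7.98 and 12.6 CPM in WT mTECs and 12.1 CPM in KO mTEC. Its WT groups overlapped, and although KO cTEC was the lowest library, the log2 difference of -1.42 ± 0.61 did not pass (adjusted p = 0.152). So the mTEC excess of the leukocyte sum came from Coro1a: the log2 ratio of the sum was 0.72, and of Ptprc alone -0.28. Per kilobase of counted length, Coro1a stood 4.77 to 12.95 times above Ptprc in WT cTECs, 22.3 and 14.3 times in WT mTECs, 4.80 times in KO cTEC and 13.3 times in KO mTEC.

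**Figure D3:**
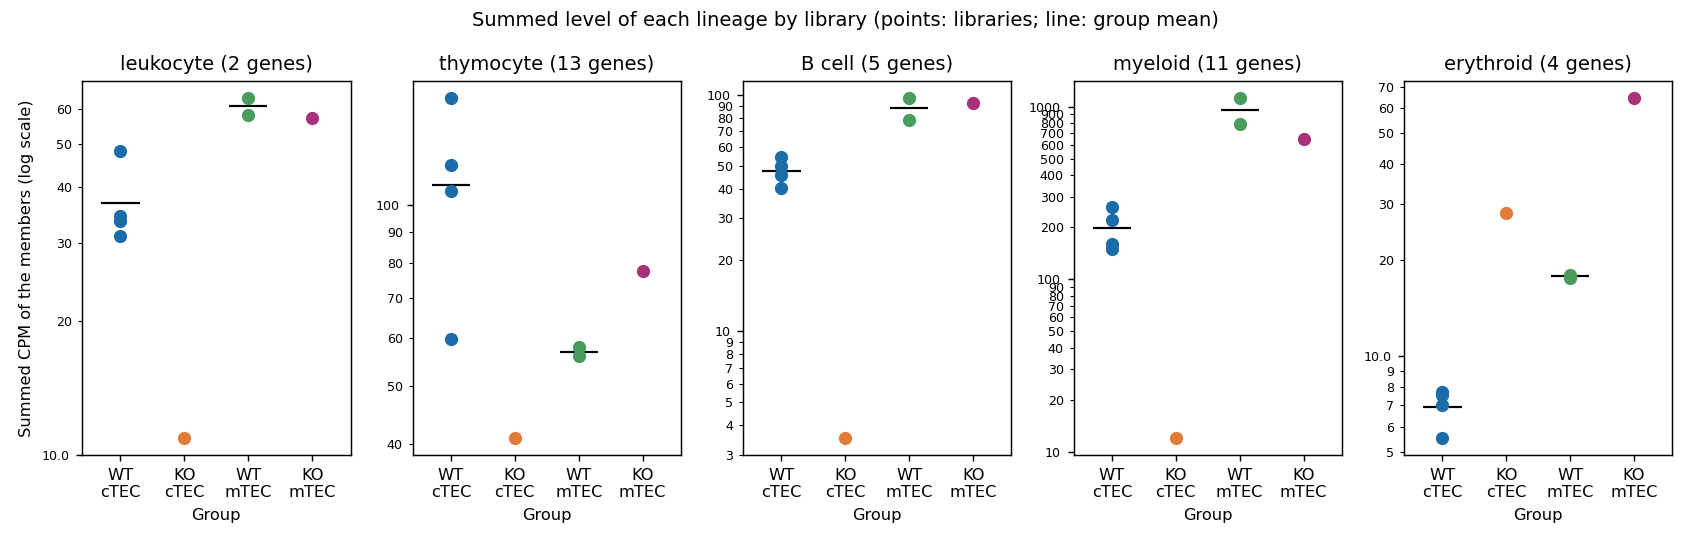
Summed CPM of the members of each lineage (y axes, log scale, a panel per lineage) in the 4 groups, with a point per library and a line at the mean of the WT groups. KO cTEC is the lowest library in every panel but the erythroid one, where both KO libraries are above the WT libraries of their population.

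Thymocyte markers summed to 105, 150, 116 and 59.9 CPM in WT cTEC libraries 1 to 4, 40.9 CPM in KO cTEC, 56.0 and 58.0 CPM in WT mTECs and 77.5 CPM in KO mTEC. They were the only lineage of the 5 with a mean sum lower in WT mTECs than in WT cTECs, at 0.528 of it. Of the 13 members, 1 was called lower in WT mTECs (13.9% of all genes) and 12 did not pass, with a median log2 ratio of -1.27. In KO cTEC 2 were called lower (12.4% of all genes) and 11 did not pass, and the sum was 37.9% of the WT mean. Neither count sets the thymocyte markers apart from genes at large. In KO mTEC 10 of 13 lay above both WT mTEC libraries, against 35.9% of all genes, none of them called.

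The WT cTEC libraries differed among themselves in these genes. Library 4 was the lowest of the 4 for 9 of the 13 (Cd3e, Cd3g, Cd4, Cd8a, Cd8b1, Lck, Rag1, Ptcra and Dntt), and library 2 the highest for 8. How often this order held over all genes was not computed. Library 4 had a count for 18704 genes, against 19765 to 20405 in the other WT cTEC libraries. The coefficient of variation over the 4 libraries was 102% for Cd4 and 99.96% for Rag1, values exceeded by 8.49% and 8.84% of all genes tested, where the median was 25.3%. For Lck it was 23.8%, exceeded by 53.1%. KO cTEC was below all 4 WT libraries for 7 of the 13, against 33.0% of all genes tested. It was above WT cTEC 4 for 6 (Cd3e, Cd4, Cd8b1, Rag1, Ptcra and Dntt). The share of all genes above WT cTEC 4 was not computed. Without WT cTEC 4, 6 members in place of 1 were called lower in WT mTECs: Dntt, Rag1, Lck, Cd8b1, Cd8a and Cd3e. Over all genes the same rule then called 2536 of 18058 lower, against 2519 of 18163 with all libraries. The number of lower members was 2 without WT cTEC 1, and 0 without WT cTEC 2 or WT cTEC 3.

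Lck, the kinase that starts signalling from the T cell receptor (chromosome 4, 129548344 to 129573641), was the most abundant thymocyte marker per kilobase in each of the 4 groups. It was at 33.8, 51.0, 41.3 and 30.0 CPM in WT cTECs, 16.8 CPM in KO cTEC, 22.7 and 24.7 CPM in WT mTECs and 26.2 CPM in KO mTEC. KO cTEC was the lowest, and both WT mTEC libraries lay below every WT cTEC library. Lck fell 2.32-fold in KO cTEC (log2 -1.21 ± 0.34, adjusted p = 0.0421), a call lost in 5 of 12 alternatives, among them those without WT cTEC 2, WT cTEC 3 or either WT mTEC library. Its mTEC difference of -0.67 ± 0.25 did not pass (adjusted p = 0.0768), and in KO mTEC the value was 0.17 ± 0.34.

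Themis, which tunes T cell receptor signalling during selection, was at 6.51, 10.6, 8.51 and 7.21 CPM in WT cTECs and 1.11 CPM in KO cTEC. The KO library lay below every other one, with 4.02 and 2.46 CPM in WT mTECs and 3.39 CPM in KO mTEC. It fell 7.39-fold in KO cTEC (log2 -2.88 ± 0.69, adjusted p = 0.0237), and its KO effects did not differ between populations past the threshold (2.96 ± 0.88, adjusted p = 0.0924). Without WT cTEC 3 the KO cTEC call was lost.

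The co-receptor genes Cd4, Cd8a and Cd8b1 each had their lowest WT cTEC value in library 4 and were above both WT mTEC libraries in KO mTEC. Cd8b1, the beta chain of CD8, was at 11.3, 9.999, 10.5 and 2.68 CPM in WT cTECs, 5.09 CPM in KO cTEC, 1.62 and 2.52 CPM in WT mTECs and 6.16 CPM in KO mTEC. It was 4.17-fold lower in WT mTECs than in WT cTECs (log2 -2.01 ± 0.63, adjusted p = 0.0478), although WT cTEC 4 was close to the mTEC values. That call was lost in 7 of 13 alternatives, among them size factors of another kind and leaving out WT cTEC 1, 2 or 3 or either mTEC library. In KO cTEC the log2 difference was -0.75 ± 0.78.

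Cd8a, the alpha chain, was at 13.3, 13.6, 11.7 and 4.81 CPM in WT cTECs, 4.70 CPM in KO cTEC, 4.12 and 3.21 CPM in WT mTECs and 5.12 CPM in KO mTEC. All 4 WT cTEC libraries were above both WT mTEC libraries, with an adjusted p of 0.0557 for the log2 difference of -1.50 ± 0.50. Cd4 spanned 0.382 CPM in WT cTEC 4 to 15.7 CPM in WT cTEC 2, a range that held all other libraries. Per kilobase, Cd8a over Cd4 was 12.4 in WT cTEC 4, 0.856 to 2.58 in the other WT cTEC libraries, 1.92 in KO cTEC, 1.12 and 0.645 in WT mTECs and 0.621 in KO mTEC.

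The signalling chains of the T cell receptor complex were low. Cd3d was at 2.71 to 4.47 CPM in WT cTECs and 1.57 CPM in KO cTEC, Cd3e at 1.31 to 7.52 CPM and 1.70 CPM, and Cd3g at 2.73 to 7.37 CPM and 1.24 CPM. KO cTEC was thus below every WT cTEC library for Cd3d and Cd3g and within their range for Cd3e, with no call. Lck over the mean of the 3 CD3 genes, per kilobase, was 3.76 to 6.90 in WT cTECs, 6.15 in KO cTEC, 3.11 and 3.08 in WT mTECs and 1.96 in KO mTEC.

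Genes of antigen receptor assembly are transcribed by immature thymocytes. Rag1, a subunit of the recombinase, was at 2.96, 14.8, 6.93 and 0.437 CPM in WT cTECs, 1.11 CPM in KO cTEC, 0.782 and 1.23 CPM in WT mTECs and 2.26 CPM in KO mTEC. Its partner Rag2 was at 1.53 to 3.28 CPM in WT cTECs, with the highest value in WT cTEC 4 where Rag1 was lowest. Rag1 over Rag2 per kilobase ran from 0.0678 in that library to 4.77 in WT cTEC 2. Rag2 overlaps the gene Iftap, which was at 18.1 to 24.5 CPM in all libraries, and the strand setting of the counting is not given in the sources used here.

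Dntt, the polymerase that adds bases at receptor junctions, was at 18.0, 12.3, 11.2 and 2.95 CPM in WT cTECs, 3.85 CPM in KO cTEC, 4.49 and 4.12 CPM in WT mTECs and 1.91 CPM in KO mTEC. The 3 higher WT cTEC libraries exceeded all others, and WT cTEC 4 lay below KO cTEC. Ptcra, the pre-T cell receptor chain, had at most 0.436 CPM in WT cTECs and 0.782 to 1.56 CPM in the mTEC libraries, and Cd2, an adhesion receptor, had 0.444 to 2.86 CPM in WT cTECs and 3 counts in KO cTEC. Cd2 was thus 9.02-fold lower there (exact 95% Poisson interval of the KO count 3.09 to 43.7, counting error only), and did not pass (adjusted p = 0.174).

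**Figure D4:**
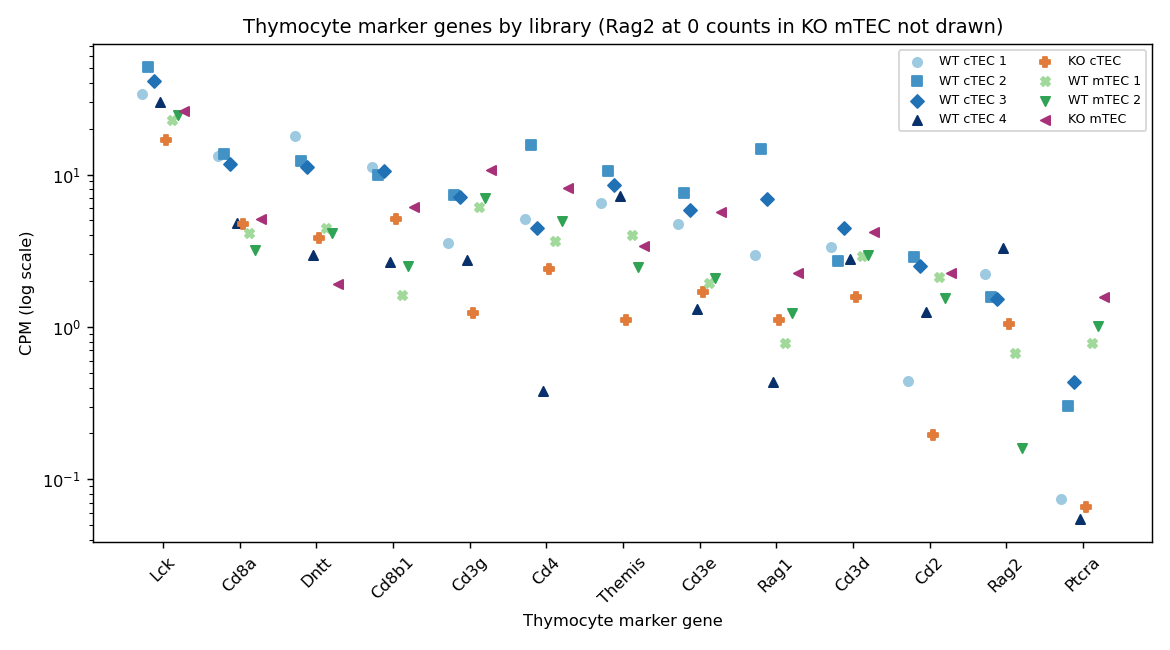
CPM (y axis, log scale) of the 13 thymocyte markers (x axis, by mean level), with a symbol per library. WT cTEC 4 is the lowest of the WT cTEC libraries for 9 genes, and KO cTEC lies above it for 6.

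B cell markers summed to 54.3, 50.0, 40.4 and 45.9 CPM in WT cTECs, 3.53 CPM in KO cTEC, 78.1 and 96.9 CPM in WT mTECs and 92.2 CPM in KO mTEC. The WT mTEC mean was 1.84 times the WT cTEC mean, and KO cTEC was at 7.40% of it. The sum was carried by Ighm and Cd79b, while the other 3 members were at 5.90 CPM or less except for Ms4a1 in KO mTEC.

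Ighm, the constant region of the IgM heavy chain (chromosome 12, 113418826 to 113422730, within the Igh locus), was at 28.6, 34.3, 30.0 and 26.4 CPM in WT cTECs. It was at 3.20 CPM in KO cTEC, 38.9 and 46.2 CPM in WT mTECs and 36.9 CPM in KO mTEC. Its coefficient of variation over the WT cTEC libraries was 11.1%, the smallest of the 35 members. In KO cTEC it was 9.33-fold lower (log2 -3.22 ± 0.31, adjusted p = 0.000416) and in KO mTEC the log2 difference was -0.17 ± 0.26, with a difference between these effects of 3.05 ± 0.38 (adjusted p = 0.0027). The higher level in WT mTECs did not pass (0.56 ± 0.18, adjusted p = 0.0521).

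Cd79b, a signalling chain of the B cell receptor (chromosome 11, 106311341 to 106314562), was at 23.8, 13.8, 9.38 and 17.5 CPM in WT cTECs, 33.9 and 42.6 CPM in WT mTECs and 32.7 CPM in KO mTEC. KO cTEC had 1 count, which is 0.0653 CPM, against 172 to 321 counts in the WT cTEC libraries. The gene was 247-fold lower there, with an exact 95% Poisson interval of 44.3 to 9755 (log2 -7.78 ± 0.91, adjusted p = 0.000983). It was 2.37-fold higher in WT mTECs than in WT cTECs (1.30 ± 0.33, adjusted p = 0.0225, lost without WT cTEC 2), and its KO effects differed by 7.59 ± 1.03 (adjusted p = 0.00367). With limma-voom neither KO call was made (adjusted p = 0.137 and 0.333).

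Its partner Cd79a did not follow it in level: 0.962, 0.526, 0.545 and 1.97 CPM in WT cTECs, 0.261 CPM in KO cTEC, 3.18 and 3.70 CPM in WT mTECs and 5.90 CPM in KO mTEC. Per kilobase, Cd79b stood 9.88 to 29.1 times above Cd79a in WT cTECs, 11.8 and 12.8 times in WT mTECs and 6.14 times in KO mTEC, and was below it in KO cTEC at 0.277. Cd79a itself passed in no comparison.

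The remaining B cell members were near the limit of detection in cTECs. Ms4a1, which encodes CD20, had 0 to 1.35 CPM in WT cTECs, no count in KO cTEC, 1.36 and 3.48 CPM in WT mTECs and 16.1 CPM in KO mTEC. That last library stood apart at 6.68 times the WT mTEC mean, from 186 counts, and the log2 difference of 2.78 ± 1.44 did not pass (adjusted p = 0.662). Pax5 had 2 counts in all 4 WT cTEC libraries together and none in KO cTEC, 15 and 17 counts in WT mTECs and 6 counts in KO mTEC.

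Myeloid markers summed to 261, 148, 160 and 221 CPM in WT cTECs, 11.9 CPM in KO cTEC, 789 and 1121 CPM in WT mTECs and 652 CPM in KO mTEC. Of the 11 members, 6 were called higher in WT mTECs (13.2% of all genes) and 4 lower in KO cTEC (12.4% of all genes). In these comparisons 3 and 5 did not pass, and 2 were not tested. The WT mTEC mean was 4.83 times that of WT cTECs, and KO cTEC was at 6.04% of WT cTECs. Lyz2 made up 78.7 to 93.3% of the sum in the 8 libraries.

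Lyz2 (chromosome 10, 117277541 to 117282272) was at 232, 123, 140 and 206 CPM in WT cTECs, 9.40 CPM in KO cTEC, 702 and 1009 CPM in WT mTECs and 580 CPM in KO mTEC. No group overlapped another. The gene was 4.88-fold higher in WT mTECs than in WT cTECs (log2 2.33 ± 0.26, adjusted p = 0.00153) and 18.6-fold lower in KO cTEC (-4.22 ± 0.48, adjusted p = 0.000907). In KO mTEC it was -0.52 ± 0.39 from WT, and the KO effects differed by 3.70 ± 0.57 (adjusted p = 0.00647). Its paralog Lyz1, with which it may share reads, was at 311 to 1151 CPM in WT cTECs and 2.09 CPM in KO cTEC. In WT mTECs Lyz1 was at 690 and 638 CPM and in KO mTEC at 502 CPM, all within the WT cTEC range. The split of reads between both genes is uncertain.

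Macrophage receptors followed the mTEC excess. Csf1r, the receptor of the macrophage growth factor, was at 3.55, 2.56, 2.56 and 3.28 CPM in WT cTECs, 0.588 CPM in KO cTEC, 9.23 and 16.6 CPM in WT mTECs and 6.08 CPM in KO mTEC. It was 4.32-fold higher in WT mTECs (log2 2.15 ± 0.39, adjusted p = 0.00707) and 5.08-fold lower in KO cTEC (-2.33 ± 0.66, adjusted p = 0.0433, lost in 7 of 12 alternatives, which include leaving out WT cTEC 2, WT cTEC 3 or either WT mTEC library). Adgre1, which encodes F4/80, was at 0.962, 1.203, 0.654 and 0.546 CPM in WT cTECs, 4.02 and 8.78 CPM in WT mTECs and 1.56 CPM in KO mTEC.

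Adgre1 had no count in KO cTEC, where a count of 0 allows up to 0.196 CPM (3 counts), so it was at least 4.30-fold lower there (adjusted p = 0.0323, lost in 5 of 12 alternatives, which include the same 4 left-out libraries). In WT mTECs it was 7.61-fold higher than in WT cTECs (log2 2.96 ± 0.61, adjusted p = 0.0111), and the log2 value was 2.36 without WT mTEC 2, where the call was lost. Both receptors were below both WT mTEC libraries in KO mTEC, at 47.1% of the WT mean for Csf1r and 24.4% for Adgre1, and neither difference passed (adjusted p = 0.702 and 0.643).

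The complement chains C1qa and C1qb, made together by macrophages, were each near 1 CPM in WT cTECs (0.818 to 1.43 and 0 to 1.55) with 4 counts each in KO cTEC. They were at 3.55 and 5.52 CPM, and at 6.83 and 12.1 CPM, in WT mTECs, and at 4.52 and 8.51 CPM in KO mTEC. Both were higher in WT mTECs (C1qa log2 2.08 ± 0.54, adjusted p = 0.0249, and C1qb 3.42 ± 0.98, adjusted p = 0.0347). These calls were lost without WT cTEC 3, and that of C1qb also without WT cTEC 2. In KO mTEC both lay within the WT mTEC range. C1qb over C1qa per kilobase was 1.92 to 2.23 in the 3 mTEC libraries.

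Fcer1g, the signalling adaptor of Fc receptors, was at 16.4, 3.98, 3.05 and 2.90 CPM in WT cTECs, 0.196 CPM (3 counts) in KO cTEC, 46.8 and 52.8 CPM in WT mTECs and 37.8 CPM in KO mTEC. Library 1 was well above the other WT cTEC libraries. The gene was 7.56-fold higher in WT mTECs (log2 2.99 ± 0.65, adjusted p = 0.0141). In KO cTEC it was 33.6-fold lower (exact 95% Poisson interval 11.5 to 163), which did not pass (-4.99 ± 1.50, adjusted p = 0.056). Without WT cTEC 1 the log2 values moved to 3.95 in WT mTECs and -4.03 in KO cTEC, and the latter was called (adjusted p = 0.0011). Tyrobp, an adaptor of the same kind, had 0 to 1.25 CPM in WT cTECs and 3.08 and 4.02 CPM in WT mTECs and passed in no comparison.

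Itgam, the CD11b integrin of monocytes and neutrophils, had no mTEC excess. It was at 4.15, 13.6, 9.54 and 7.10 CPM in WT cTECs, 0.784 CPM in KO cTEC, 9.86 and 7.28 CPM in WT mTECs and 3.47 CPM in KO mTEC. Both mTEC values fell within the cTEC range (log2 0.05 ± 0.50), while KO cTEC was 10.97-fold lower than WT cTECs (-3.45 ± 0.85, adjusted p = 0.027). That call was lost without WT cTEC 3 and without WT mTEC 1.

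The dendritic cell members were scarce. Xcr1, the chemokine receptor of cross-presenting dendritic cells, was at 0 to 1.92 CPM in WT cTECs, 0 in KO cTEC, 1.67 and 3.80 CPM in WT mTECs and 6.16 CPM in KO mTEC. Itgax, which encodes CD11c, had at most 0.601 CPM in WT cTECs, 0.991 CPM in WT mTECs and 2.26 CPM in KO mTEC, and Siglech at most 0.164, 0.696 and 0 CPM. None of the 3 was called in a comparison, and Itgax and Siglech were not tested.

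Of the 4 erythroid markers, 1 was called higher in KO cTEC (5.10% of all genes) and 2 in WT mTECs (13.2% of all genes). None was called in KO mTEC, where the same test called 0% of all genes. They summed to 7.70, 7.52, 7.03 and 5.52 CPM in WT cTECs, 28.2 CPM in KO cTEC, 17.6 and 18.0 CPM in WT mTECs and 64.5 CPM in KO mTEC. The higher sums in both KO libraries rested on 1 gene, Alas2, which made up 65.2 to 99.3% of the sum in the 8 libraries. Without it the log2 ratio of the sum in KO cTEC turned from 2.02 to -2.43, and that in KO mTEC went from 1.86 to 0.57. The value of -2.43 is imprecise, since it rests on 2 counts of Klf1, 1 of Epor and 0 of Slc4a1 in KO cTEC. None of these genes was called there.

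Alas2, the erythroid form of the first enzyme of haem synthesis (chromosome X, 150547417 to 150570622), was at 7.33, 5.04, 6.71 and 4.48 CPM in WT cTECs, 28.0 CPM in KO cTEC, 12.0 and 11.7 CPM in WT mTECs and 55.7 CPM in KO mTEC. No group overlapped another, and each KO library was above all WT libraries. In KO cTEC it was 4.76-fold higher than in WT cTECs (log2 2.25 ± 0.31, adjusted p = 0.00198). In KO mTEC it was 4.70-fold higher than in WT mTECs (2.26 ± 0.36, unadjusted p = 0.000197), which did not pass over all genes (adjusted p = 0.179) and was called by DESeq2 alone among the alternatives run. In that library the fibroblast genes were also high, at 1090 CPM against 173 and 153 in WT mTECs, and their part in this value was not tested. The difference of these effects was 0.01 ± 0.55. In WT, Alas2 was 2.01-fold higher in mTECs (1.06 ± 0.26, adjusted p = 0.0208). It overlaps Apex2, which stayed at 11.2 to 15.0 CPM in all libraries.

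The other erythroid members did not rise with Alas2 in KO cTEC. Klf1, the transcription factor of red cell genes, was at 0.296, 0.752, 0.327 and 1.04 CPM in WT cTECs, 0.131 CPM (2 counts) in KO cTEC, 2.87 and 3.05 CPM in WT mTECs and 4.60 CPM in KO mTEC. It was higher in WT mTECs (log2 2.32 ± 0.73, adjusted p = 0.0472, lost in 8 of 13 alternatives, which include leaving out WT cTEC 1, 2 or 3), and KO cTEC was below every other library. Slc4a1, the anion exchanger of the red cell membrane, had 9 counts in WT cTEC 2 and none in the other cTEC libraries, and 1.88, 1.55 and 4.17 CPM in the mTEC libraries. Epor, the erythropoietin receptor, had 1 count in KO cTEC, none in KO mTEC and 0.835 and 1.66 CPM in WT mTECs. Of the 3 erythroid members whose windows are printed above, Alas2 was called higher in KO cTEC. Klf1 and Epor had 2 and 1 counts there and were not called. In KO mTEC, Alas2 and Klf1 were above both WT mTEC libraries and Epor had no count, with none called.

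Haemoglobin genes, from a further list of 14 erythroid genes of which 10 were tested, were highest in the same libraries as Alas2, both KO ones, but not in the same order among the WT libraries. Hba-a1 and Hba-a2 are near-identical copies of each other. They and Hbb-bs may share reads with their neighbours. Together, Hba-a1, Hba-a2 and Hbb-bs summed to 15.2, 22.3, 32.0 and 112 CPM in WT cTECs and 629 CPM in KO cTEC. Their sum was 75.0 and 29.1 CPM in WT mTECs and 1393 CPM in KO mTEC. They were not called between WT mTECs and WT cTECs (log2 0.33, 0.16 and 0.26, adjusted p of 0.767 to 0.902). These 3 genes were called higher in KO cTEC (Hba-a1 log2 3.98 ± 0.82, adjusted p = 0.0137), and Sptb and Epb42, which encode proteins of the red cell membrane skeleton, were called lower. The same test called 5.10% of all genes higher and 12.4% lower in KO cTEC. Epb42 was at 0.763 to 3.61 CPM in WT cTECs and had no count in KO cTEC, with 19.04, 20.03 and 25.8 CPM in the mTEC libraries. Haemoglobin over Alas2 in CPM was 22.5 in KO cTEC, 25.0 in KO mTEC and also 25.0 in WT cTEC 4, against 2.07 to 6.25 in the other WT libraries.

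**Figure D5:**
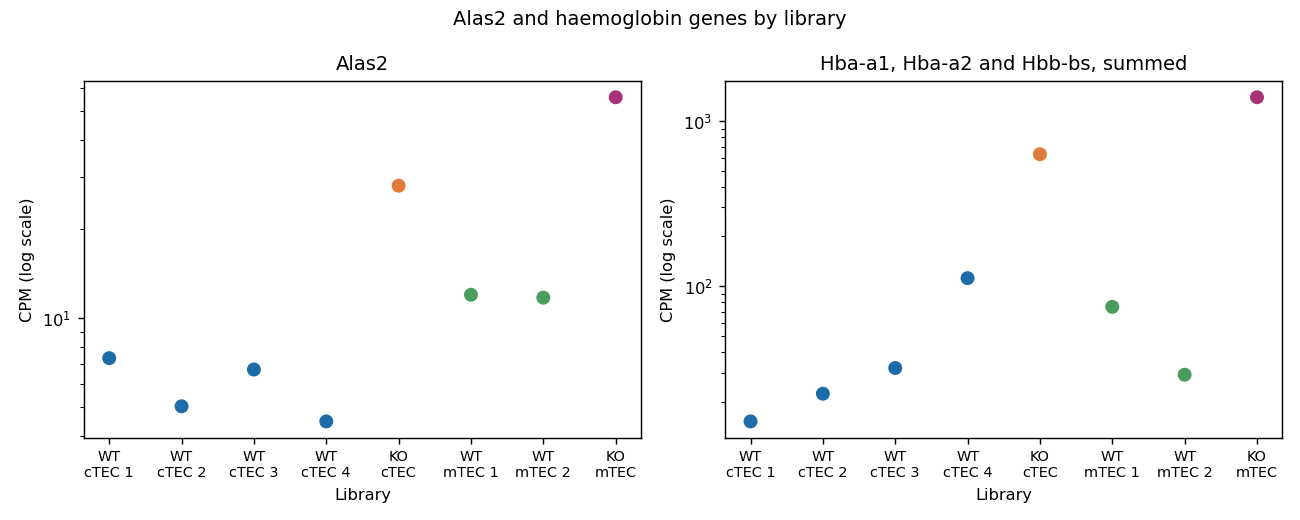
CPM (y axes, log scale) of Alas2 (left) and of Hba-a1, Hba-a2 and Hbb-bs summed (right) in the 8 libraries (x axis), coloured by group. KO cTEC and KO mTEC are the 2 highest points in both panels, and WT cTEC 4 is the highest WT library for haemoglobin and the lowest for Alas2.

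Further genes of the same lineages were read beside the members, against 12.4% of all genes called lower in KO cTEC, and 13.2% higher and 13.9% lower in WT mTECs. Of 14 other leukocyte genes (13 tested), 8 were lower in KO cTEC, and in WT mTECs 4 were higher and 1 lower. Rac2, a small GTPase of blood cells, was at 90.0 to 191 CPM in WT cTECs, 2.55 CPM in KO cTEC, 375 and 395 CPM in WT mTECs and 379 CPM in KO mTEC, and Vav1, an exchange factor for such GTPases, at 73.0 to 146, 1.31, 52.5 and 57.5, and 61.6 CPM. Both lay in KO cTEC far under every other library. Arhgdib, a regulator of the same GTPases and the most abundant gene of that list, was not called in KO cTEC (log2 0.74 ± 0.25, adjusted p = 0.0805).

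Of 18 other T lineage genes, all tested, 5 were lower in KO cTEC and 1, Rhoh, was lower in WT mTECs. Bcl11b, a factor of T cell commitment, was at 21.7 to 29.6 CPM in WT cTECs and 6.46 CPM in KO cTEC (log2 -2.005 ± 0.33, adjusted p = 0.00467). The single lower gene in WT mTECs is under the share of all genes. Of 12 other B lineage genes (10 tested), 5 were lower in KO cTEC, and 4 were higher and 1 lower in WT mTECs. Cr2, the complement receptor CD21, was at 16.1 to 95.9 CPM in WT cTECs, 2 counts in KO cTEC, 34.9 and 29.6 CPM in WT mTECs and 27.4 CPM in KO mTEC, with its lowest WT cTEC value in library 1.

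Of 20 other myeloid and dendritic genes (18 tested), 7 were lower in KO cTEC, and 8 were higher and 1 lower in WT mTECs. Ccr2, the chemokine receptor of monocytes, was at 8.66 to 17.5 CPM in WT cTECs, without a count in KO cTEC, at 21.0 and 15.6 CPM in WT mTECs and at 19.1 CPM in KO mTEC. It was lower in KO cTEC (adjusted p = 0.000865) and was not called between WT mTECs and WT cTECs. Of 10 natural killer and innate lymphoid genes (6 tested), 1 was lower in KO cTEC (Il7r, the interleukin-7 receptor, with no count there) and 1 was higher in WT mTECs (Gzmb, a granule protease), counts too small to set against the shares of all genes. In KO mTEC none of the genes of these lists was called, and the same test called 0% of all genes.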

How the data were processed

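Polyadenylated RNA was measured in 8 libraries of sorted TECs; per the labels' protocols, pellets were frozen, a low-input kit made and amplified the cDNA, and tagmented libraries were read from both ends. The deposited values are raw counts per Entrez gene with no normalization, made by the authors with featureCounts against mm10, per the submitters' processing notes; for versions, aligner and strand the sources used here give nothing. The series-wide table went unused, since none of its 8 columns matches a label. Symbols came from RefSeq (GRCm38.p6), which held 25275 of 27179 identifiers (93.0%).

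CPM was computed on library totals, with a limit of 3 counts for a count of 0. Limits and Poisson intervals (95%) cover counting error only. Genes at 1 CPM in at least 2 libraries (18163) were TMM-scaled and put through the two-sided quasi-likelihood F test of edgeR 4.0.16 (robust, R 4.3.3), with 1 mean per group over all 8 libraries and 4 residual degrees of freedom. A call needed an adjusted p (Benjamini-Hochberg, over all genes) under 0.05. The SE is the log2 fold change over the square root of F. The script was tested on simulated data. Alternatives were RLE size factors, library totals, other filters (none, or 0.2 CPM in 1 library), DESeq2 1.42.0, limma-voom 3.58.1, each WT replicate left out and a replicate block.

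The members and lists were chosen with earlier results of these data known. All members are named; values in every library are given for those called or among the 3 most abundant of their lineage, and of each further list at most the 3 most abundant and the 2 called genes with the largest changes per comparison are allowed by name. Lck, Ms4a1, Pax5, Csf1r, Adgre1 and Siglech overlap noncoding genes or pseudogenes, so their counts could include reads of these.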

Additional observations from a re-analysis of the deposited data

Results flagged for a closer look

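In 5 of 40 sets of 4 WT cTEC values, which is the members and lineage sums, 1 library lay farther from the others than the critical value of Dixon's test at 95% allows; chance gives about 1 in 20. The gap over the whole range was 0.854 for Cd8b1, lowest in WT cTEC 4, and 0.92 for Fcer1g, highest in WT cTEC 1. It was 1.0 for Pax5, where WT cTEC 3 held the 2 counts, 1.0 for Slc4a1, where WT cTEC 2 held all 9, and 0.93 for Epor, also highest in WT cTEC 2, with 14 counts. For Pax5 and Slc4a1 the other 3 libraries were at 0, which fixes the ratio at 1.0 whatever the count. These 2 show nothing beyond that 1 library held the counts and are not to be set against the chance rate. For Epor, WT cTEC 1, 3 and 4 held 1, 0 and 0 counts, which holds its ratio near 1.0. It is not to be set against that rate either. Only Cd8b1 and Fcer1g remain, about as many as that rate gives among 40 sets.

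The KO effect differed between mTECs and cTECs for 4 members by edgeR's test of the difference itself. On the log2 scale the mTEC effect exceeded the cTEC effect by 1.83 for Coro1a, 7.59 for Cd79b, 3.05 for Ighm and 3.70 for Lyz2, each lower in the 1 KO cTEC library than in all 4 WT cTEC libraries.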

How the results depend on the processing

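No member changed direction past the threshold under any alternative, and of the 25 calls of a member in a comparison, 5 were kept under all alternatives run: Coro1a, Ighm, Lyz2 and Alas2 in KO cTEC, and Lyz2 between WT mTECs and WT cTECs. The 10 members higher in WT mTECs became 16 with limma-voom and 3 with the replicate block (1 residual degree of freedom), and 1 to 11 with a library left out. The 1 lower member became 0 with RLE size factors and 2 with DESeq2, and 0 to 6 with a library left out. The 9 members lower in KO cTEC became 3 with limma-voom, and 4 to 10 with a library left out. In KO mTEC, DESeq2 called 1 member higher. The 4 members with a different KO effect became 7 with DESeq2 and 0 with limma-voom. Replicate numbers were not taken to pair the WT libraries. Deviations from the group means of same-numbered libraries correlated at -0.146 and -0.019. With 2 WT mTEC libraries these deviations mirror each other, so the values cannot show or exclude pairing. Over all genes, the sums of calls went from 4912 to 603 without WT mTEC 2 for mTECs against cTECs, from 3179 to 1726 with limma-voom in KO cTEC, from 0 to 141 with DESeq2 in KO mTEC, and from 1236 to 104 with limma-voom for the difference of KO effects. The causes were not tested, apart from the fewer samples left. Of 105 alternative values of lineage sums, 83 were within 1 SD of the value given. Pax5, Itgax and Siglech were left untested by the filter on low values, and Slc4a1, Epor, Ptcra and Xcr1 had 0 to 26 counts per cTEC library, so their folds are imprecise.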
